A study of Mus musculus with 2 samples.

Results

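The mitochondrial respiratory chain was followed through 30 nuclear genes that code for subunits of its complexes, out of 10198 genes listed in both count tables of the study. The members were matched by gene symbol, and all 30 were present in both tables. By name, 10 belong to complex I, 2 to complex II, 5 to complex III, 10 to complex IV and 3 to complex V. The 13 protein genes of the mitochondrial genome, called mt-coded here, were set beside them: 7 of complex I, 1 of complex III, 3 of complex IV and 2 of complex V.

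Mouse lung cells were profiled in 2 single-cell libraries, one labelled niche cells and one labelled distal lung cells. Both lungs were taken 7 days after an intravenous injection of Labelling-4T1, 4T1 mouse mammary carcinoma cells built to mark the lung cells around them, and both libraries are labelled CD45-, that is, without the surface marker of blood-derived cells. The labels give no strain, age, number of pooled animals or further gate. The comparison asks how lung cells near the metastatic cells differ from cells farther away.

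Each condition is 1 library, so no difference has a replicate check, no test between conditions was made and no p-value is given. Ratios carry exact intervals of 95% that cover counting error only, and the origin of the cells and the handling of their library cannot be told apart. After filtering, 1423 niche and 1987 distal cells remained, with 5099569 and 4758695 unique molecular identifiers (UMIs, 1 for each captured RNA molecule) in the common genes and medians of 2975 and 1975 UMIs per cell. The libraries shared 7 cell barcodes. Cells fell into 19 clusters, built without any respiratory chain or mt-coded gene. Of the niche and distal cells, 781 and 400 were mesenchymal-like, 497 and 1307 endothelial-like, 94 and 254 epithelial-like, and 51 and 26 immune-like, the last against the CD45- label. Levels are given as CPM (UMIs of a gene per 1000000 UMIs of the cells named) or as a percent of those UMIs. The chemistry counts the 3' end of each molecule, so levels are not divided by gene length. In summed cells, fewer molecules per cell and fewer cells with the gene cannot be told apart.

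Complexes I to IV pass electrons from NADH and succinate to oxygen, and complexes I, III and IV pump protons across the inner mitochondrial membrane. Complex V, the ATP synthase, uses the proton gradient to make ATP. Every complex but complex II joins subunits coded in the nucleus and made in the cytosol with subunits coded and made inside mitochondria. Alveolar type 2 cells, which make surfactant, are rich in mitochondria, and lung pericytes are known for alternative subunits of complex IV.

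The members lie on 16 chromosomes, with at most 3 on any of them. RefSeq promoter sequences (GRCm38.p6) matched 24 of the 30, and the 250 bases before each start were searched on both strands. The motif of the nuclear respiratory factor NRF1 (GCGC, then 1 free base, then TGCGC) was found in 5 of 24 members (20.8%) and in 3.74% of 32851 promoters. CCGGAAG, the core motif of ETS factors, was found in 8 of 24 (33.3%) and in 6.91% of all. GGGCGG was found in 8 of 24 members against 32.7% of all promoters, CCAAT in 12 of 24 against 33.8%, TATAAA in 1 of 24 (4.17%) against 12.4%, and AAGATGGCG in none against 0.606%. Overlaps between motifs were not removed. The median GC content was 55.8% in members and 52.4% over all promoters. Ndufa2, Ndufb9, Uqcrb, Uqcrq, Cox4i1 and Cox6c were not matched. A match describes letters and is not a shown binding site.

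Windows of 4 members are shown, with the NRF1 and ETS motifs in capitals, because they run from several motifs to none. Cox6a1 (chr5:115348959-115349208, minus strand) holds 2 NRF1 motifs and 1 ETS motif, Ndufs5 (chr4:123718187-123718436, minus strand) 1 NRF1 motif, and Uqcr11 (chr10:80406822-80407071, minus strand) 1 ETS motif. Ndufa4 (chr6:11907484-11907700, minus strand, without the 33 bases nearest the start) holds neither. Other matched members also hold neither, among them Ndufa1. Over clusters and libraries the level of Ndufa4 varied most and that of Ndufa1 least, and a link of motifs to levels was not tested.
Cox6a1: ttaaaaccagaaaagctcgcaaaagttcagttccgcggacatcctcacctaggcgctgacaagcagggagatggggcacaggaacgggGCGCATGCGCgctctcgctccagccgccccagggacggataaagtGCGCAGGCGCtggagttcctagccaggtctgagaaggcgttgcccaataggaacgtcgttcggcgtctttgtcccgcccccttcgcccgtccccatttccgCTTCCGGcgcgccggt
Ndufs5: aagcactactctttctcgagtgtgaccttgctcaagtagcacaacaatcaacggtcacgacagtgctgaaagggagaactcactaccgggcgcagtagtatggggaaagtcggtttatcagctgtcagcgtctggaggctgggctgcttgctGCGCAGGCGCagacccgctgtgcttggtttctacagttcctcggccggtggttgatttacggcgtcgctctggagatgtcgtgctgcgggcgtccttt
Uqcr11: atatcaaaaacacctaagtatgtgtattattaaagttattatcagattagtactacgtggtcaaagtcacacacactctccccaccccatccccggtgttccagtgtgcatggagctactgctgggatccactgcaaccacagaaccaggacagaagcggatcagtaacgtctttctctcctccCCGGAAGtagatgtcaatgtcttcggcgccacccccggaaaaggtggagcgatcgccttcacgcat
Ndufa4: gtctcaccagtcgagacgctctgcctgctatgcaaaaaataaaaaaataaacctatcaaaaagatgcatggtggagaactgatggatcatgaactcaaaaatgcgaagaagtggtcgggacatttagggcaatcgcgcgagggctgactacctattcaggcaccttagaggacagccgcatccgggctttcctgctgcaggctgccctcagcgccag

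The members were among the most abundant transcripts. In each library 29 of 30 ranked among the 1000 highest genes, with median ranks of 371 (niche) and 378.5 (distal). The exception was Sdhd, a membrane anchor of complex II, at 71.6 and 75.9 CPM. Cox6c, a small subunit of complex IV, was the highest niche member at 948 CPM and reached 809 CPM among distal cells. Cox4i1, the widely expressed form of cytochrome c oxidase subunit 4, was at 870 CPM in niche and 903 CPM in distal cells, where it was the highest member.

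Summed over all cells, the 30 members took 1.30% of niche and 1.26% of distal UMIs, a log2 ratio of niche over distal of 0.05 (interval 0.03 to 0.07). The 13 mt-coded genes took 2.74% and 2.56% (log2 0.10). Cell classes differed beneath these sums. In mesenchymal-like cells the members took 1.21% and 1.20% (log2 0.01, -0.02 to 0.04). In endothelial-like cells they took 1.33% and 1.26% (log2 0.08, 0.05 to 0.10). In epithelial-like cells they took 1.99% and 1.29% (log2 0.63, 0.59 to 0.67), a class filled by different cells in each library, as described further on. The ratio over all cells was -0.00 (-0.02 to 0.01) without 1 keratin-positive epithelial cluster and -0.02 without cells low in the nuclear RNA Malat1.

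The mt-coded genes had their own pattern. In mesenchymal-like cells they took 2.73% of niche and 2.53% of distal UMIs (log2 0.11, 0.09 to 0.13), and in endothelial-like cells 2.76% and 2.30% (log2 0.27, 0.25 to 0.29). In epithelial-like cells they were lower in the niche library, 2.63% against 3.14% (log2 -0.26, -0.29 to -0.23), while the nuclear sum was higher. The class holds mostly different clusters in each library, and that direction depended on which cells were counted. The mt-coded ratio was 0.13 without the keratin-positive cluster (25 niche cells) and 0.04, not resolved, without low-Malat1 cells (36 niche cells). It was 0.19 within alveolar type 2-like cells (17 niche cells). The mt-coded UMIs per nuclear member UMI were 1.32 and 2.43 in niche and distal epithelial-like cells, 2.07 and 1.82 in endothelial-like cells, and 2.27 and 2.11 in mesenchymal-like cells. Mitochondrial genes have nuclear copies and several members have processed pseudogenes. How reads that match several copies were counted is not given in the sources used here.

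**Figure D1:**
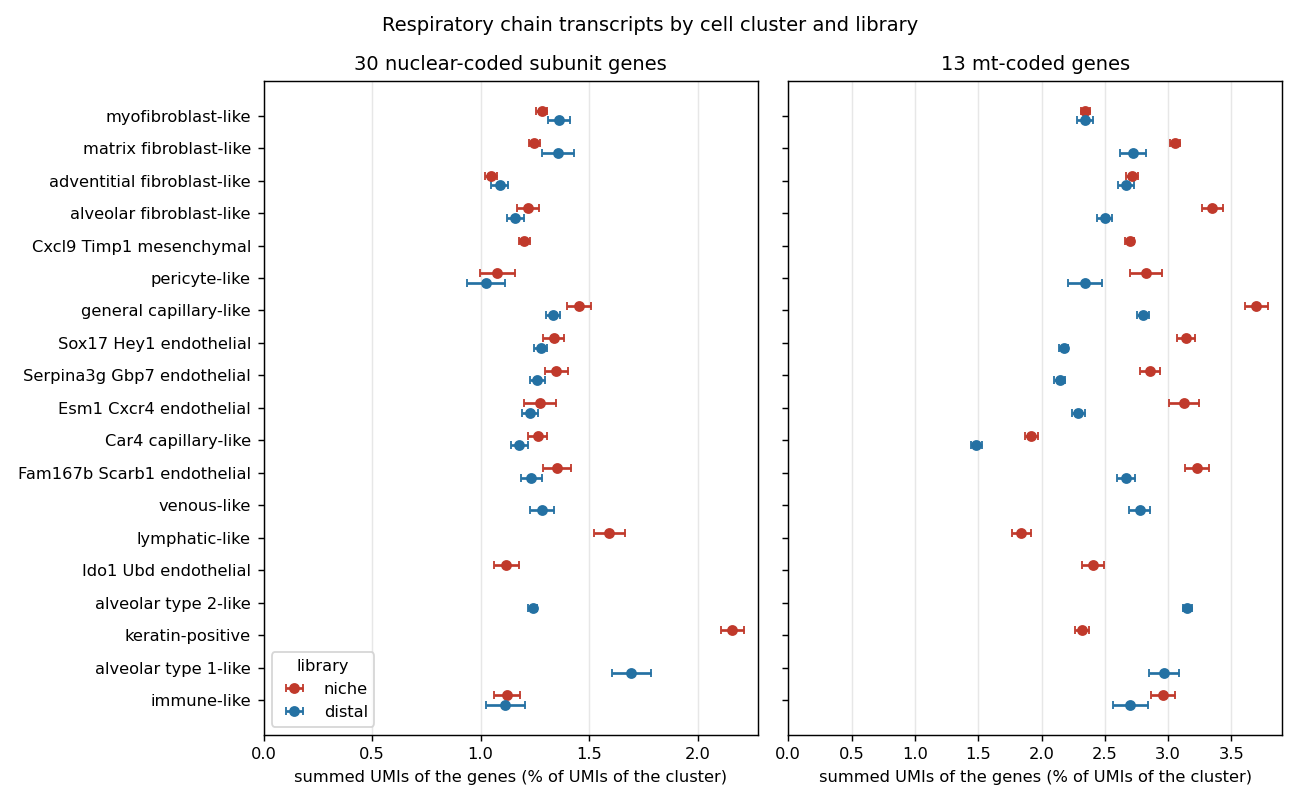
Summed UMIs of the 30 nuclear-coded members (left) and the 13 mt-coded genes (right) as a percent of the UMIs of each cluster (x axis), for clusters (y axis) with at least 20 cells in a library; red is niche, blue is distal, and bars are exact 95% Poisson intervals. Keratin-positive niche cells lie highest in the nuclear sum at 2.16%, and in the 6 endothelial clusters drawn for both libraries the niche mt-coded sum lies to the right of the distal one.

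Across niche clusters of at least 20 cells, the nuclear sum ran from 1.05% (1.02 to 1.08) in adventitial fibroblast-like and 1.08% in pericyte-like cells to 1.59% (1.52 to 1.66) in lymphatic-like and 2.16% (2.11 to 2.21) in keratin-positive cells. The intervals of the last 2 were clear of their next neighbour, and no other neighbours in the order were resolved. Among distal clusters the order began with alveolar type 1-like cells at 1.69% (1.60 to 1.78), clear of myofibroblast-like cells at 1.36%, and ended with pericyte-like cells at 1.02% (0.94 to 1.11).

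The mt-coded order was another. General capillary-like cells were highest among niche clusters at 3.69% and lymphatic-like cells lowest at 1.84%, although the latter were second in the nuclear sum. Among distal clusters alveolar type 2-like cells were highest at 3.15%, and Car4 capillary-like cells lowest at 1.49%. Where both libraries had at least 20 cells, in 12 clusters, the nuclear and mt-coded sums had a Pearson correlation of 0.35 among niche and 0.08 among distal values. The same cluster's niche and distal values correlated at 0.80 (nuclear) and 0.71 (mt-coded). These describe 12 clusters that share libraries and depth.

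The summed ratios of fibroblast subtypes split. In myofibroblast-like cells, led by Actg2, Aspn and Hhip, the members took 1.28% of niche and 1.36% of distal UMIs (log2 -0.09, -0.15 to -0.03), and the mt-coded ratio was 0.00. Per cell, the median member share there was 1.27% in niche and 1.28% in distal cells. In matrix fibroblast-like cells the members took 1.25% and 1.35% (log2 -0.12, -0.20 to -0.04), and the mt-coded ratio was 0.17. Low-Malat1 cells made up 17 of 186 niche and 12 of 42 distal cells of that cluster. In its other cells the members took 1.21% and 1.23%, and the part of Malat1 in the ratio was not tested. In alveolar fibroblast-like cells, marked by Tcf21, the members took 1.22% and 1.16% (log2 0.07, -0.01 to 0.15), and the mt-coded ratio was 0.42. Adventitial fibroblast-like and pericyte-like cells had nuclear ratios of -0.05 and 0.07 with intervals that held 0. The Cxcl9 Timp1 mesenchymal cluster took 1.20% from 178 niche cells and had 3 distal cells, too few to compare.

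Endothelial subtypes were more alike. In all 6 endothelial clusters with 20 cells in both libraries, the nuclear ratio lay between 0.05 and 0.13 and the mt-coded ratio between 0.27 and 0.53. The latter was largest in Sox17 Hey1 endothelial cells, where mt-coded genes took 3.14% of niche and 2.17% of distal UMIs. Over the 12 clusters the nuclear interval lay above 0 in 5 and below 0 in 2. The mt-coded interval lay above 0 in 10 and below it in none, and held 0 in myofibroblast-like and adventitial fibroblast-like cells.

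Depth moved with the mt-coded ratio. In mesenchymal-like cells it was 0.72 under 1500 UMIs, 0.63 from 1500, 0.29 from 2500 and 0.01 (-0.03 to 0.06) from 4000 UMIs, where 333 niche and 35 distal cells lay. In endothelial-like cells it was 0.57, 0.48, 0.29 and 0.28 (0.23 to 0.33) over the same ranges. The nuclear ratio in mesenchymal-like cells was 0.19 (0.06 to 0.31), 0.11 (0.05 to 0.18), -0.03 (-0.08 to 0.03) and -0.00 (-0.07 to 0.06) over these ranges. In endothelial-like cells it was 0.06 (-0.06 to 0.17), 0.10 (0.05 to 0.14), 0.01 (-0.03 to 0.06) and 0.03 (-0.03 to 0.09). The nuclear ratio was thus not resolved from 2500 UMIs upward in either class. The part of depth in either ratio was not tested further.

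**Figure D2:**
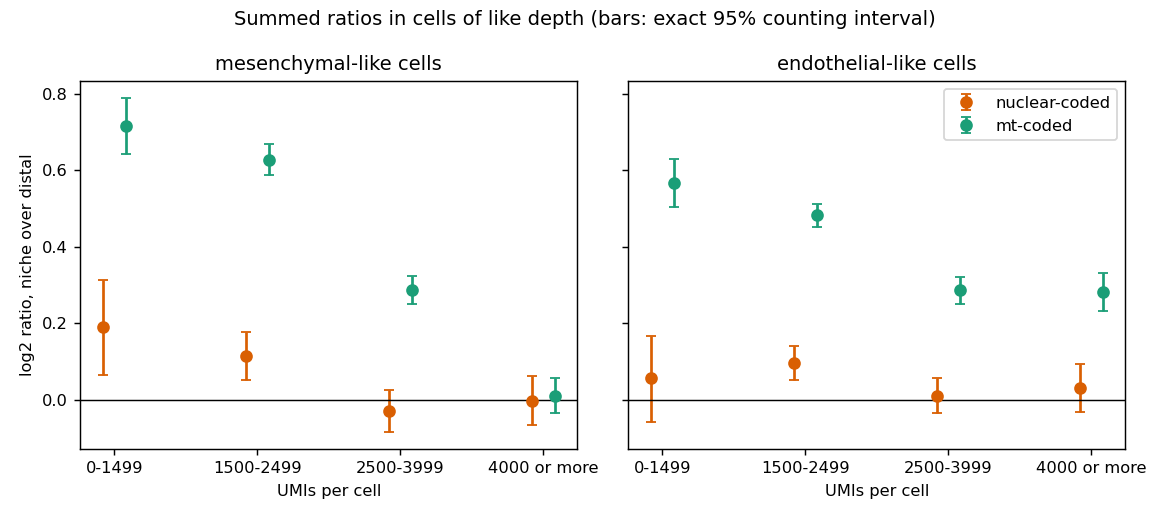
Log2 ratio of niche over distal (y axis) for the summed nuclear-coded members (orange) and the summed mt-coded genes (green) in cells grouped by total UMIs (x axis), for mesenchymal-like (left) and endothelial-like cells (right), with exact 95% counting intervals. The mt-coded ratio is 0.72 in the shallowest and 0.01 in the deepest mesenchymal-like cells and 0.57 and 0.28 in endothelial-like cells. The nuclear ratio is 0.19 in the shallowest and -0.00 in the deepest mesenchymal-like cells and 0.06 and 0.03 in endothelial-like cells.

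A member was called higher or lower where its ratio was at least 1.5-fold and the interval excluded equality. No member was called in mesenchymal-like cells, where 6.25% of 9972 tested genes were called higher and 13.8% lower. None was called in endothelial-like cells, against 3.46% higher and 4.2% lower of 9710 genes, nor over all cells, against 10.6% and 15.5%. The median member ratio was -0.02 in mesenchymal-like cells (all genes tested, -0.16) and 0.09 in endothelial-like cells (-0.04). Among genes with at least as many UMIs as the lowest member, the medians were 0.03 (2235 mesenchymal genes, above the members' value) and -0.01 (2097 endothelial genes). Of these genes, 12.4% were called higher and 10.9% lower in mesenchymal-like cells. In endothelial-like cells the shares were 2% and 2.62%, so no call among 30 members is near the share of such genes. In epithelial-like cells 15 of 30 were called higher and none lower, against 16.6% and 12.7% of 8071 genes, and the median was 0.59 against -0.04. At 2-fold 5 members were called higher there, against 12.4% of genes higher and 10.3% lower. Of the 1482 genes with at least as many epithelial UMIs as the lowest member, 34.8% were called higher at 1.5-fold and their median was 0.18. At 2-fold 291 of these 1482 genes were called higher and 230 lower, so the share called higher was above that of 5 in 30 members.

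With the interval alone as the criterion, 7 members were higher and 3 lower in mesenchymal-like cells, beside 10.1% and 17.6% of all genes. In endothelial-like cells 9 were higher and none lower, beside 6.95% and 8.85%. In epithelial-like cells 23 were higher and 1 lower, beside 17.8% and 13.4%. More UMIs make an interval narrower, and among genes with at least as many UMIs as the lowest member the shares were larger. They were 28.6% higher and 23.8% lower in mesenchymal-like cells, where the members' shares were 23.3% and 10%. In endothelial-like cells they were 16.2% and 18.6%, against 30% and 0% of members. In epithelial-like cells they were 41.4% and 28.5%, against 76.7% and 3.33% of members. In myofibroblast-like cells 2 were higher and 8 lower, beside 7.18% and 10.2% of all 7593 tested genes, shares that are not matched for UMIs.

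**Figure D3:**
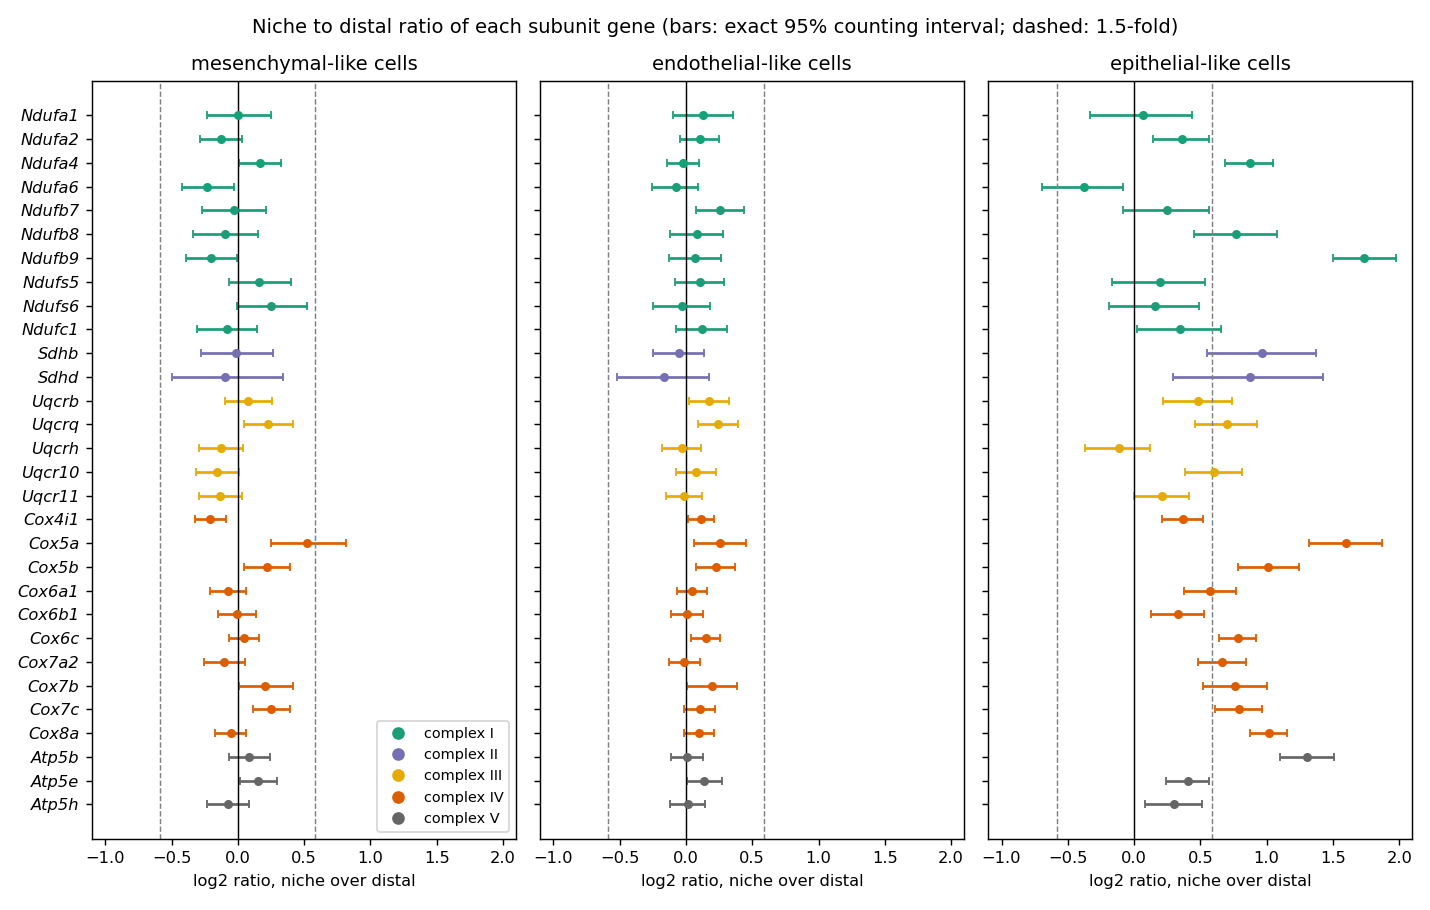
Log2 ratio of niche over distal (x axis) for each of the 30 members (y axis), coloured by complex, in mesenchymal-like, endothelial-like and epithelial-like cells; bars are exact 95% counting intervals and dashed lines mark 1.5-fold. No member is past 1.5-fold in the first 2 panels, where Cox5a lies at 0.52 and 0.26. In epithelial-like cells, which fall mostly in different clusters in each library, Ndufb9 and Cox5a lie at 1.74 and 1.60.

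Complex I, the NADH dehydrogenase, was represented by accessory subunits and by Ndufa4, counted here by name but now placed with complex IV. Their sum, Ndufa4 included, had ratios of -0.03 in mesenchymal-like, 0.06 in endothelial-like and 0.55 in epithelial-like cells. Ndufa6 was lowest in the first class, at 265 CPM in niche and 311 CPM in distal cells (log2 -0.23, -0.42 to -0.03). Its subtypes went both ways, with ratios of -0.49 in myofibroblast-like and -0.55 in matrix fibroblast-like cells but 0.52 in alveolar fibroblast-like and 0.51 in Car4 capillary-like cells, each interval clear of 0. In epithelial-like cells it was the only member whose interval lay below 0 (273 and 357 CPM, log2 -0.38, -0.70 to -0.08). Ndufb9, a membrane-arm subunit, was at 283 and 325 CPM in mesenchymal-like cells (log2 -0.20, -0.39 to -0.01) and at 793 and 238 CPM in epithelial-like cells (log2 1.74), the largest ratio of the 30. Within alveolar type 2-like cells, of which 17 were niche cells, its ratio was not resolved (log2 0.21, -0.49 to 0.79). In endothelial-like cells Ndufb7 was at 294 and 246 CPM (log2 0.26, 0.07 to 0.44), with Cox5a of complex IV the largest ratios of that class. Ndufa1 varied least over clusters and libraries, by 0.80 on the log2 scale.

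Complex II, succinate dehydrogenase, is coded by nuclear genes alone. Sdhb, its iron-sulphur subunit, was at 154 and 155 CPM in niche and distal mesenchymal-like cells and at 245 and 255 CPM in endothelial-like cells. Within the endothelium it was highest in Car4 capillary-like cells, the aerocyte type of alveolar capillary. There it was at 386 CPM against 212 CPM in the other niche endothelial-like cells (log2 0.87, 0.52 to 1.21) and at 462 against 229 CPM in the distal ones (log2 1.02, 0.73 to 1.29). Those cells had the lowest distal mt-coded sum. Sdhb differed between libraries in general capillary-like cells (266 and 168 CPM, log2 0.67) and in the other direction in Serpina3g Gbp7 endothelial cells (168 and 290 CPM, log2 -0.77). Sdhd was not resolved between libraries in mesenchymal-like (log2 -0.10, -0.50 to 0.34) or endothelial-like cells (-0.17, -0.52 to 0.17).

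Complex III passes electrons from ubiquinol to cytochrome c. Uqcrq, one of its small subunits, was higher in the niche library in both large classes, at 381 and 325 CPM in mesenchymal-like (log2 0.23, 0.05 to 0.41) and 426 and 360 CPM in endothelial-like cells (log2 0.24, 0.09 to 0.39). In myofibroblast-like cells Uqcrq was also higher (log2 0.47), while Uqcrh, Uqcr10 and Uqcr11 of the same complex were lower (-0.37, -0.44 and -0.43). Uqcrb was at 421 and 374 CPM in endothelial-like cells (log2 0.17). Uqcrh, the hinge subunit, was at 444 and 482 CPM in epithelial-like cells (log2 -0.12, -0.37 to 0.12), apart from most members there.

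Complex IV, cytochrome c oxidase, had Cox5a as the member with the highest mesenchymal-like ratio. Cox5a was at 193 CPM in niche and 134 CPM in distal mesenchymal-like cells (log2 0.52, 0.25 to 0.82), 256 and 214 CPM in endothelial-like cells (log2 0.26) and 544 and 180 CPM in epithelial-like cells (log2 1.60). Within alveolar type 2-like cells, of which 17 were niche cells, its ratio was not resolved (log2 0.48, -0.23 to 1.09). Among subtypes its interval was clear of 0 in myofibroblast-like (log2 0.73, 0.12 to 1.46) and Serpina3g Gbp7 endothelial cells (0.57, 0.01 to 1.10). Within the niche library it was at 266 CPM in the Cxcl9 Timp1 cluster against 169 CPM in the other mesenchymal-like cells (log2 0.65, 0.40 to 0.90), where 59 of that cluster's 178 cells were low in Malat1. Cox5b had ratios of 0.22 in both large classes. Cox4i1 was lower in niche mesenchymal-like cells (783 and 904 CPM, log2 -0.21, -0.32 to -0.09) and slightly higher in niche endothelial-like cells (958 and 886 CPM, log2 0.11). In myofibroblast-like cells Cox8a had the lowest ratio (703 and 1025 CPM, log2 -0.55, -0.77 to -0.32), with Cox4i1 at -0.35 and Cox7a2 at -0.38.

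Complex V was represented by Atp5b, the catalytic beta subunit, Atp5e and Atp5h. In endothelial-like cells Atp5b was at 623 and 620 CPM and Atp5h at 550 and 545 CPM. Atp5e was at 641 and 575 CPM in mesenchymal-like cells (log2 0.15, 0.02 to 0.30). In Car4 capillary-like cells Atp5e was low in both libraries, at 363 CPM against 588 CPM in the other niche endothelial-like cells and 330 against 516 CPM in the distal ones. In epithelial-like cells Atp5b was at 927 and 375 CPM (log2 1.31, 1.10 to 1.51).

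Cell types had leading members of their own. Cox6c was highest among fibroblasts in myofibroblast-like cells, at 1205 CPM against 849 CPM in the other niche mesenchymal-like cells and 1196 against 829 CPM in the distal ones. In niche lymphatic-like cells Cox4i1 was at 1467 CPM against 907 CPM in other endothelial-like cells, and Atp5b at 1005 against 585 CPM. In niche Ido1 Ubd endothelial cells, led by interferon-induced genes, Ndufa4 was at 309 against 649 CPM (log2 -1.05, -1.57 to -0.61) and Uqcr11 at 240 against 521 CPM, from 29 cells.

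Of the mt-coded genes, 11 of 13 had intervals above 0 in endothelial-like cells. Those with the largest ratios were mt-Nd3 (361 and 248 CPM, log2 0.54) and mt-Nd2 (1128 and 813 CPM, log2 0.47) of complex I. The most abundant, mt-Atp6 of complex V, was at 6980 and 5650 CPM (log2 0.30, 0.27 to 0.34) there and at 6404 and 5605 CPM in mesenchymal-like cells (log2 0.19). mt-Co1, the catalytic core of complex IV, was at 3689 and 3761 CPM in mesenchymal-like cells (log2 -0.03) and at 3424 and 6143 CPM in epithelial-like cells (log2 -0.84). mt-Nd4l and mt-Atp8 overlap mt-Nd4 and mt-Atp6, so their counts are uncertain.

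**Figure D4:**
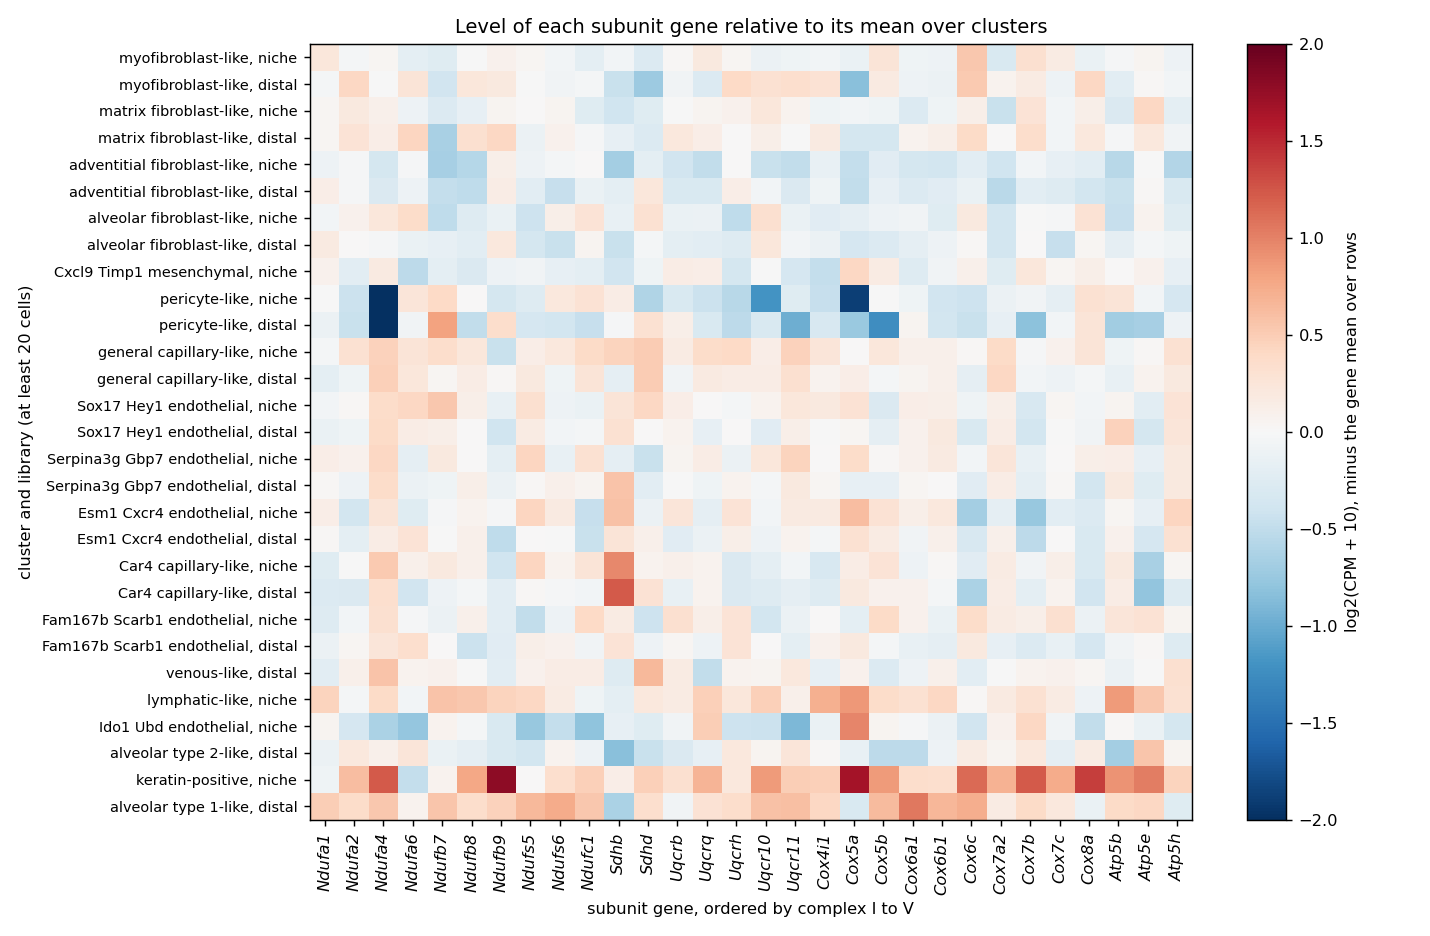
Level of each member (x axis, complex I to V) in each mesenchymal, endothelial or epithelial cluster and library with at least 20 cells (y axis), as log2(CPM + 10) minus the member's mean, with colours ending at 2 and -2. Pericyte-like cells stand out low for Ndufa4 (30.8 and 56.6 CPM), Car4 capillary-like cells high for Sdhb (386 and 462 CPM), and keratin-positive niche cells high for Ndufb9 (988 CPM) and Cox5a (644 CPM).

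Pericyte-like cells had little of a member that every other cluster held. Ndufa4, first described in complex I, counted there by name and now placed with complex IV, had 2 UMIs in 22 niche and 3 UMIs in 35 distal pericyte-like cells. That is 30.8 and 56.6 CPM, against 500 and 460 CPM in the other mesenchymal-like cells. The log2 ratio of pericyte-like over the others was -3.70 (-7.07 to -2.17) in niche and -2.80 (-5.31 to -1.47) in distal cells. In the other mesenchymal and endothelial clusters with 20 cells Ndufa4 lay between 309 and 724 CPM. Its range over 31 cluster and library values, 5.18 on the log2 scale, was the widest of the members.

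Its paralogue Ndufa4l2, known as a hypoxia-inducible gene, had the reverse pattern, at 861 CPM in niche and 1623 CPM in distal pericyte-like cells against 10.2 and 32.9 CPM in the others. It made up 96.6% of the pair's UMIs in each library. Per cell, 18 of 22 niche and 31 of 35 distal cells held Ndufa4l2 alone, 2 and 1 held Ndufa4 alone, and 0 and 1 held both. Free RNA can place UMIs in cells that do not express a gene: among endothelial-like cells, with median depths of 2341 and 1715 UMIs, 0.80% (niche) and 0.38% (distal) held a Ndufa4l2 UMI, against 81.8% and 91.4% of pericyte-like cells at 2656.5 and 1407 UMIs.

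Cox4i2, the alternative form of cytochrome c oxidase subunit 4, stood beside Cox4i1 in the same cells. Cox4i2 was at 2800 and 4868 CPM in niche and distal pericyte-like cells and at 21.1 and 30.6 CPM in the other mesenchymal-like cells. Cox4i1 was at 646 and 717 CPM, against 786 and 915 CPM in the others, with intervals that held equality (log2 -0.27, -0.76 to 0.16, and -0.33, -0.86 to 0.12). Both genes were found in 14 of 22 niche and 20 of 35 distal cells. Cox5a had 3 UMIs in niche pericyte-like cells (46.2 against 196 CPM, log2 -1.86, -4.37 to -0.53), and among distal cells its ratio was not resolved (113 against 135 CPM). Ndufb7 went the other way, at 323 against 193 CPM in niche (log2 0.77, 0.04 to 1.37) and 434 against 186 CPM in distal cells (log2 1.25, 0.53 to 1.86). The isoform and member genes were not used in the clustering, and all 10 measured pericyte markers, among them Notch3 and Higd1b, were detected in both libraries.

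**Figure D5:**
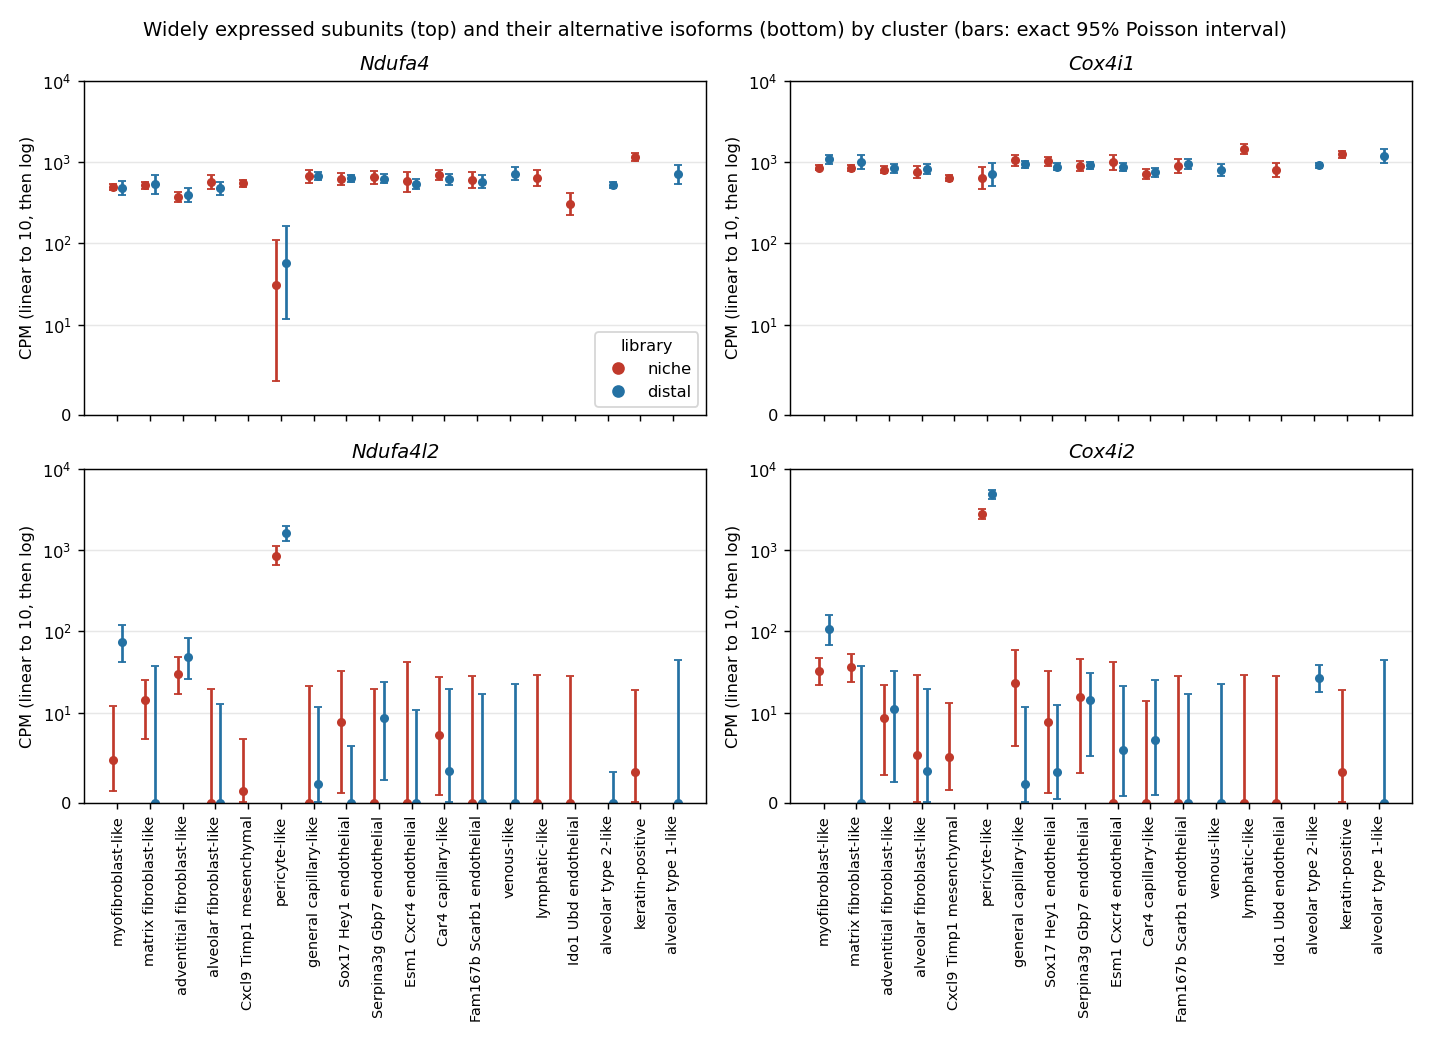
CPM (y axis, linear to 10 and logarithmic above) of Ndufa4, Cox4i1 (top) and their alternative forms Ndufa4l2 and Cox4i2 (bottom) by non-immune cluster (x axis) with at least 20 cells, red for niche and blue for distal, with exact 95% Poisson intervals. In pericyte-like cells Ndufa4 lies at 30.8 and 56.6 CPM and Ndufa4l2 at 861 and 1623 CPM, while Cox4i2 lies at 2800 and 4868 CPM beside Cox4i1 at 646 and 717 CPM.

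Both alternative genes were lower in niche than in distal pericyte-like cells, Ndufa4l2 with a log2 ratio of -0.91 (-1.43 to -0.41) and Cox4i2 with -0.80 (-1.08 to -0.52). Pericyte markers summed to 0.995% of niche and 1.58% of distal UMIs in these cells, with none of the 10 at 0. Smooth muscle markers summed to 0.391% and 0.145%, with 1 of 6 at 0 in each library. Inflammatory fibroblast markers summed to 0.923% and 0.149%, with 2 and 5 of 8 at 0. Interferon-induced markers summed to 1.56% and 0.338%, with 0 and 2 of 10 at 0. The part of these markers in the ratios was not tested. Over all mesenchymal-like cells the ratios were -2.16 and -1.97, where pericyte-like cells made up 2.82% of niche and 8.75% of distal cells. Without them the Ndufa4l2 ratio was -1.69 (-2.46 to -0.91) and the Cox4i2 ratio -0.55 (-1.20 to 0.16).

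Further alternative subunits were found in other cell types. Cox6a2, known as the heart and muscle form of subunit 6a, was found in 143 of 216 distal alveolar type 2-like cells (66.2%) at 282 CPM, beside Cox6a1 at 464 CPM. In the 17 niche cells of that cluster it was at 168 CPM. In the 9 distal keratin-positive cells it was at 311 CPM from 7 UMIs (125 to 640), not resolved from the alveolar type 2-like level. Among distal endothelial-like cells 0.31% held it, at a median of 1715 UMIs per cell against 5439.5 in the alveolar type 2-like cells. Cox8b, the muscle form of subunit 8, was at 89.3 CPM against 10.3 CPM in niche alveolar fibroblast-like and other mesenchymal-like cells, and at 108 against 21.6 CPM in distal ones. Among the latter, matrix fibroblast-like cells were at 90.8 CPM (41.5 to 172), which overlaps the alveolar fibroblast-like value (73.2 to 153). Cox6b2 had 51 UMIs in distal alveolar type 2-like cells (46.8 CPM) and 2 UMIs in the other distal epithelial-like cells (19.0 CPM). The difference was not resolved (log2 0.99, -0.63 to 4.39). Cox7a2l was at 295 and 369 CPM in niche and distal mesenchymal-like cells (log2 -0.33, -0.50 to -0.14) and at 366 and 367 CPM in endothelial-like cells. Cox7a1, Cox7b2 and Cox8c were not among the common genes and are not analysed here.

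Epithelial-like cells were of different kinds in the libraries. Keratin-positive cells, led by Scgb1a1, Sfn, Phgdh, Krt8 and Krt18, made up 73.4% of the niche class (69 of 94 cells) and 3.54% of the distal class (9 of 254). Alveolar type 2-like cells made up 216 distal and 17 niche cells. In niche keratin-positive cells, markers of keratin-positive or mammary carcinoma cells summed to 2.01% of UMIs with 0 of 9 at 0, and club cell markers to 5.24% with 0 of 5 at 0. Malat1 was below 0.1 of the library's median share in 54 of the 69 cells. Those 54 had 2.33% nuclear member UMIs and 2.20% mt-coded UMIs, and the other 15 had 1.38% and 2.87%. The shares of cell kind and of Malat1 in the class ratios cannot be told apart.

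In niche keratin-positive cells Cox8a reached 2009 CPM, Cox6c 1834 CPM, Ndufa4 1153 CPM, Ndufb9 988 CPM and Cox5a 644 CPM, and they held 1.07 mt-coded UMIs per nuclear member UMI. Leaving out this cluster left 25 niche and 245 distal epithelial-like cells. Without it the nuclear ratio was 0.30 (0.23 to 0.37), the mt-coded ratio was 0.13 (0.08 to 0.18), and 6 members were called higher and none lower. In those cells 6.08% of 7423 tested genes were called higher and 1.15% lower, with 11.7% higher among genes with at least as many UMIs as the lowest member. The members' median of 0.27 stood beside 0.30 for all tested genes and 0.19 for genes with at least as many UMIs as the lowest member. Without low-Malat1 cells, with 36 niche and 245 distal cells left, the nuclear ratio was 0.22 (0.16 to 0.29) and the mt-coded ratio 0.04 (-0.00 to 0.08). Then 4 members (13.3%) were called higher and none lower. There 9.62% of 7631 tested genes were called higher and 1.89% lower, and 18.4% were called higher among genes with at least as many UMIs as the lowest member, more than the members' share.

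The alveolar type 2-like cluster had 17 niche cells, below the minimum of 20 used for the other clusters. Within this cluster alone the nuclear ratio was 0.28 (0.20 to 0.36) and the mt-coded ratio 0.19 (0.14 to 0.24). Here 4 members were called higher and none lower, beside 5.19% and 1.16% of 6989 tested genes (10% higher among genes with at least as many UMIs as the lowest member). The members' median of 0.28 stood beside 0.29 for all tested genes and 0.15 for genes with at least as many UMIs as the lowest member. The members called higher were Cox7a2 (log2 0.74), Atp5b (0.69), Uqcrq (0.64) and Sdhb (0.91). In distal alveolar type 1-like cells, of which there were 29, Cox6a1 was at 1402 CPM against 469 CPM in the other distal epithelial-like cells (log2 1.59, 1.28 to 1.87) and Cox5b at 653 against 296 CPM.

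The rest of the pathway was described by lists. Of 47 other subunit genes none was called in mesenchymal-like or endothelial-like cells (median log2 -0.03 and 0.02), and 18 were called higher and 1 lower in epithelial-like cells (0.45). Of 11 carriers, Cycs (cytochrome c) was called higher in mesenchymal-like cells (log2 0.92, 0.65 to 1.21), as was Slc25a5, an ADP and ATP carrier (357 and 212 CPM, log2 0.75), and none was called in endothelial-like cells. Of 40 assembly factors 4 (Ndufaf3, Uqcc1, Coa6 and Tmem70) were called lower in mesenchymal-like cells and none higher, a smaller share than the 13.8% of all genes called lower there, while in endothelial-like cells Timmdc1 was called higher and Atpaf2 lower. Of 15 citric acid cycle genes, Suclg2 was called lower in mesenchymal-like cells (log2 -1.08) and none was called in endothelial-like cells. Of 11 regulators, Hif1a, the oxygen-regulated transcription factor, was called higher in mesenchymal-like (71.3 and 46.0 CPM, log2 0.62) and endothelial-like cells (66.4 and 39.6 CPM, log2 0.75). Nrf1, which codes for the nuclear respiratory factor NRF1, was called lower in mesenchymal-like cells (15.3 and 31.0 CPM, log2 -1.03, -1.71 to -0.30). Of 20 import and chaperone genes 2 were called higher and 1 lower in mesenchymal-like cells and none in endothelial-like cells. Of all genes, 6.25% were called higher and 13.8% lower in mesenchymal-like cells, and 3.46% and 4.2% in endothelial-like cells. The mesenchymal-like shares were 9.09% each way for regulators, 10% and 5% for import and chaperone genes, and 18.2% higher for carriers. Citric acid cycle genes had 6.67% lower. These shares rest on 1 or 2 genes each, and those of regulators, import and citric acid cycle genes lay near or below the background. In epithelial-like cells 8 of 11 carriers, 5 of 36 measured assembly factors, 3 of 15 citric acid cycle genes, 1 of 9 regulators and 15 of 20 import and chaperone genes were called higher, with 0, 1, 0, 1 and 1 lower. Beside 16.6% of all genes higher and 12.7% lower, the counts of assembly factors, citric acid cycle genes and regulators lay near the background.

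Lists outside the chain gave values of their own. The 84 cytosolic ribosomal protein genes had median ratios of 0.17, 0.13 and 0.91 in mesenchymal-like, endothelial-like and epithelial-like cells. The 14 proteasome core genes had 0.34, 0.09 and 1.30, and the 16 immediate early and dissociation genes -0.51, -0.11 and -1.04. Mitochondrial ribosomal protein genes had -0.08, 0.08 and 0.69. The part of cell handling in the members' ratios was not tested.

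Genes most like the members were found by correlating 2087 other genes with the summed members over 31 cluster and library values. Atp5j2 came first (Pearson r 0.83), then Tomm7 (0.74), Atp5k (0.74), Usmg5 (0.71) and Atp5d (0.70). All but Tomm7, a part of the outer membrane import pore, code for ATP synthase subunits. Polr2f (0.69), Rps27l, Mdh2, Polr2l and Mrpl12 followed, and 14 of 45 other subunit genes were among the 50 most alike. Of the members, Ndufb8 (0.83) and Cox6b1 (0.76) followed the others most closely, and Sdhb (0.04) and Ndufa6 (-0.15) least. These correlations describe values that share libraries and depth.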

How the data were processed

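The authors deposited UMI counts per gene and cell, 1 table for each of the 2 libraries. The submitters' processing notes name Cell Ranger 2.1.1, R 3.4.1 and the build mm10, without their roles. The kit was Chromium Single Cell 3', per the labels' protocols. The members and gene lists were chosen with earlier results of these data known.

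Cells with at least 500 genes and at most 10% mt-coded UMIs were retained (50 niche and 9 distal barcodes fell outside). After scaling each cell to 10000 and a log transform, 2000 variable genes, with members, other subunits, isoforms and mt-coded genes removed, gave 20 principal components, a 15-neighbour graph and Leiden clusters at resolution 1 (scanpy 1.11.5, leidenalg 0.10.2). Names came from 32 marker lists. Scrublet called 10 niche and 24 distal doublets, which were kept.

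UMIs were summed by library and class. Log2 ratios had 0.5 UMI added, with exact conditional binomial intervals (scipy 1.17.1), and levels had exact Poisson intervals. A gene was tested with at least 10 UMIs over both libraries. For thinning, each cell was reduced to 1200 UMIs. Named were members with the highest and lowest level per complex and the 5 highest and 5 lowest ratios per class, mt-coded and isoform genes, the outermost 2 genes per list and the 10 genes most like the members. Members that stand apart in 1 cluster, and further list genes that were called, were named after their values were seen. The ratio script was tested on simulated data. Alternatives varied scaling, filters, depth, doublets, Malat1 and clustering.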

Additional observations from a re-analysis of the deposited data

Results flagged for a closer look

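The mt-coded sum went in opposite directions between cell classes. Its log2 ratio of niche over distal was -0.26 in epithelial-like cells, 0.11 in mesenchymal-like and 0.27 in endothelial-like cells. The epithelial-like direction turned without the keratin-positive cluster (0.13, 0.08 to 0.18), which left 25 niche cells. Without low-Malat1 cells the direction was not resolved (0.04, -0.00 to 0.08). Within alveolar type 2-like cells, of which 17 were niche cells, the ratio was 0.19. The difference was not tested, since each condition is 1 library. Per cell, the mt-coded share of niche epithelial-like cells ran from 0.64% at the lower quartile to 4.42% at the upper quartile, against 2.35% to 4.15% in distal ones.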

How the results depend on the processing

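No paired analysis was possible because each condition is 1 library. Over all alternatives the endothelial-like ratios stayed above 0 (nuclear 0.04 to 0.11, mt-coded 0.21 to 0.41), as did the mesenchymal-like mt-coded (0.05 to 0.27) and epithelial-like nuclear ratios (0.22 to 0.85), and the endothelial-like class had no called member in any. The mesenchymal-like nuclear ratio lay between -0.02 and 0.06. Cells grouped by depth, given further above, were not among these alternatives. In those groups the endothelial-like nuclear ratio was not resolved from 2500 UMIs upward, nor the mesenchymal-like mt-coded ratio from 4000 UMIs. Where a value moved, values follow as log2 ratios in the order nuclear, mt-coded, and the cause was not tested. With mt-coded and ribosomal protein genes out of the total they were 0.10 and 0.15 over all cells, 0.040 and 0.15 in mesenchymal-like, 0.10 and 0.29 in endothelial-like, and 0.85 and -0.037 in epithelial-like cells. Scaled to the median gene they were 0.12 and 0.17, 0.062 and 0.17, 0.11 and 0.30, and 0.46 and -0.42. As means of per-cell shares, the ratios over all cells were 0.073 and 0.24, the endothelial-like 0.11 and 0.30, and the mt-coded ratio was 0.24 in mesenchymal-like and -0.16 in epithelial-like cells. With equal weight per cluster the mt-coded ratio was 0.29 over all cells, 0.18 in mesenchymal-like and 0.41 in endothelial-like cells, and could not be had for epithelial-like cells, where no cluster had enough cells in both libraries. With at least 1000 genes per cell the values were 0.014 and 0.049 over all cells and 0.040 and 0.29 in endothelial-like cells, with mt-coded ratios of 0.074 in mesenchymal-like and -0.34 in epithelial-like cells. With at most 5% mt-coded UMIs, mt-coded ratios were 0.042 over all cells, 0.048 in mesenchymal-like, 0.21 in endothelial-like and -0.52 in epithelial-like cells, the epithelial-like nuclear ratio was 0.57, and 1 mesenchymal-like member was called. Without a filter on genes, the mt-coded ratio was 0.082 over all cells, and the epithelial-like ratios were 0.43 and -0.44. Thinned, mt-coded ratios were 0.25, 0.27, 0.34 and -0.15 in the same order of classes, the mesenchymal-like nuclear ratio was 0.050, and 1 member was called there; 353 distal cells and 1 niche cell were too shallow. Without low-Malat1 cells the nuclear ratio over all cells was -0.019, the epithelial-like ratios were 0.22 and 0.040, and 4 epithelial-like members were called. Leaving out clusters was chosen after seeing the data. Without the Cxcl9 Timp1 cluster the nuclear ratio over all cells was 0.071. Without the keratin-positive cluster the ratios were -0.0038 and 0.11 over all cells and 0.30 and 0.13 in epithelial-like cells, with 6 members called. Depth limits single members in small clusters, where few UMIs leave wide intervals.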
